A study of Mus musculus with 12 samples.

Results

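The genes of the transforming growth factor-beta (TGF-beta) ligands, their receptors and the family of latent TGF-beta binding proteins were examined by name, with every library shown. The 10 genes were the ligands *Tgfb1*, *Tgfb2* and *Tgfb3*, the receptors *Tgfbr1*, *Tgfbr2* and *Tgfbr3*, the latent binding proteins *Ltbp1*, *Ltbp2* and *Ltbp3*, and *Tgfbi*, whose product is a matrix protein. They were found by symbol as 10 of the 23284 genes listed for sorted osteoblasts and 10 of the 24346 listed for MC3T3-E1 cells. In both experiments all 10 reached the minimum level for testing, an FPKM of 1 in at least 1 library, where FPKM is the number of fragments mapped to a gene scaled for transcript length and library size.

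RNA-seq was performed on 12 libraries in 4 groups of 3, asking how osteoblast transcripts differed after parathyroid hormone (PTH) treatment and after overexpression of *Slpi*, the gene of secretory leukocyte protease inhibitor. In the first experiment, 7AAD-Lin-CD45-ECFP+ cells were sorted from the crushed and enzymatically digested calvaria and limb bones of female Col2.3-ECFP mice, in which a type I collagen promoter drives the fluorescent protein ECFP in osteoblasts. Treatment began at 12 weeks of age: both groups were injected on 5 days per week for 3 weeks, the vehicle group with PBS and the PTH group with PTH (1-34) at 40 µg/kg per day, and cells were harvested 24 h after the last injection. In the second, MC3T3-E1 cells, a clonal osteoblastic line from mouse calvaria, were stably transduced with an empty retroviral vector (mock) or the same vector carrying *Slpi*, selected with puromycin, and lysed when subconfluent. The sort thus rested on promoter activity, MC3T3-E1 is a single clonal line, and both of its groups carried the vector. Biological replicates came from different mice according to the study's methods, but the number of mice per library was not given in the sources used here. Whether replicates of the cell line were separate cultures was not given either, so the p-values of that experiment measure the spread between its libraries, which may be technical.

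The 3 TGF-beta ligands are secreted as latent complexes in which the propeptide stays bound around the mature cytokine. Latent TGF-beta binding proteins (LTBPs) attach to the propeptide and anchor the complex to fibrillins and fibronectin, and integrins or proteases release the ligand, which then binds the type II receptor TGFBR2 and, with it, the type I receptor TGFBR1, which phosphorylates SMAD2 and SMAD3. Betaglycan, encoded by *Tgfbr3*, is a co-receptor that presents TGF-beta2 in particular. Bone matrix is a large store of latent TGF-beta, laid down by osteoblasts and released during resorption.

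The labels were checked first. *Slpi* was 1.64, 2.38 and 2.62 FPKM in the vehicle libraries and 37.5, 19.8 and 27.2 FPKM in the PTH libraries. It ranged from 377 to 396 FPKM in mock cells and from 1848 to 2105 FPKM in *Slpi*-overexpressing cells. Replicates of a group correlated across genes with r from 0.908 to 0.962 in the first experiment and from 0.984 to 0.991 in the second, and relative depth ran from 0.787 to 1.40 and from 0.870 to 1. Among osteoblast markers, *Bglap* (osteocalcin) was at least 6963 FPKM in every sorted library, but *Col1a1* and *Col1a2*, the chains of type I collagen, were listed at 0 in vehicle replicate 3 and in all PTH libraries. An exact 0 can be a failed estimate, so neither was read. In MC3T3-E1 cells *Col1a1* ranged from 7237 to 8740 FPKM, while the mature markers *Bglap* (1.05 to 2.85 FPKM), *Dmp1* (0.694 to 1.48 FPKM) and *Phex* (0.183 to 0.363 FPKM) were near 0. PTH replicate 3 carried a source name of another form than the other PTH libraries and stood apart from them in the marker sums given later.

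The promoters of 5 genes are shown: *Tgfb1* and *Ltbp3*, the members that passed the test in PTH-treated osteoblasts, and *Ltbp1*, *Ltbp2* and *Tgfbi*, which with *Ltbp3* had the 4 largest falls in *Slpi*-overexpressing MC3T3-E1 cells. Windows from RefSeq (GRCm38.p6) were matched for 8 of the 10 genes, *Tgfb3* and *Tgfbr3* being the others, and the stretch before the first annotated start is printed 5′ to 3′ on the gene's strand, with matches in capitals on either strand to the cAMP response element (CRE) TGACGTCA, the SMAD box CAGAC and the GC box GGGCGG.
Tgfb1, chr7:25686752-25687001, plus strand: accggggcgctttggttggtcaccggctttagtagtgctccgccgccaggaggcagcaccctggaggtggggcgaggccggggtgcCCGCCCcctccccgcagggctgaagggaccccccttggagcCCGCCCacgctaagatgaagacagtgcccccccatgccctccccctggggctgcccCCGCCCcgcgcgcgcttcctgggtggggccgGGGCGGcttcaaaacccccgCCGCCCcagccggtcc
Ltbp3, chr19:5740650-5740899, plus strand: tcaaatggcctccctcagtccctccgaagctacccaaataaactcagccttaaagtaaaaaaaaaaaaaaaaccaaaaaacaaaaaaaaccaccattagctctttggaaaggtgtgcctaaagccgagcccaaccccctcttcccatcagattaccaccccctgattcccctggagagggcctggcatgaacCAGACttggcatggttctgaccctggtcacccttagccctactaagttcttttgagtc
Ltbp1, chr17:75005279-75005528, plus strand: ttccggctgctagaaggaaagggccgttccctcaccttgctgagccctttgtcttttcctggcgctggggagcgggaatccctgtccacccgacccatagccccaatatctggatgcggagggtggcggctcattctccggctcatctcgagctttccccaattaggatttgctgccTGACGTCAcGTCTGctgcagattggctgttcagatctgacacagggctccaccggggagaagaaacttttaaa
Ltbp2, chr12:84876533-84876741, minus strand: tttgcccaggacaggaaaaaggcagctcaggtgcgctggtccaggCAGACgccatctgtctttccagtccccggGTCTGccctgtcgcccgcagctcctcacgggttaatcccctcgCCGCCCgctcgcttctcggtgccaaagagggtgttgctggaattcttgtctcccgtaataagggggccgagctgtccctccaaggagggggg
Tgfbi, chr13:56609336-56609522, plus strand: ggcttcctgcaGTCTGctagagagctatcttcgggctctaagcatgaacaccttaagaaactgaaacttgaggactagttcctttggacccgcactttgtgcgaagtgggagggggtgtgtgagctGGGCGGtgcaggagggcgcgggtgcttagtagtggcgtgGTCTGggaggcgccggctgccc

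The *Tgfb1* window held 5 GC boxes and no SMAD box. The *Ltbp1* window held 1 CRE and 1 SMAD box, the *Ltbp3* window 1 SMAD box, and the *Ltbp2* and *Tgfbi* windows 2 SMAD boxes and 1 GC box each. Among 32851 mouse promoter windows cut to 250 bases, 1.55% held the CRE, 42.2% the SMAD box and 32.7% the GC box. For windows of 209 bases, the length printed for *Ltbp2*, the shares were 37.1% for the SMAD box and 26.5% for the GC box, and for 187 bases, the length for *Tgfbi*, 34.2% and 22.2%. The AP-1 site TGANTCA and the TATA box TATAAA were searched as well and were in none of the 5, and the CRE half-site TGACG, which lies within the CRE and was in 17.8% of windows of 250 bases, was in the *Ltbp1* window alone among them. Of the matched windows not printed, that at the first start of *Tgfb2* held 2 SMAD boxes, 1 CRE half-site and 1 TATA box, that of *Tgfbr1* 2 GC boxes and that of *Tgfbr2* 1 SMAD box. Windows at later starts inside *Tgfbr1* and *Ltbp1* held 1 and 2 SMAD boxes. The matches are a description of the letters and say nothing of binding.

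In osteoblasts of PTH-treated mice, transcripts of *Tgfb1* and of *Ltbp3* rose about equally, by 0.68 on the log2 scale each, and those of the receptors did not pass the test. Of the 10 genes, 2 passed the test as higher and 0 as lower at an adjusted p under 0.05 (limma, adjusted over all 13004 genes tested), where 6.38% of all genes tested were higher and 8.85% lower (15.2% in either direction). At an unadjusted p under 0.05, 6 were higher and 0 lower. The 3 PTH libraries lay above all 3 vehicle libraries for 6 genes (*Tgfb1*, *Tgfb3*, *Ltbp1*, *Ltbp2*, *Ltbp3* and *Tgfbi*), a pattern found upwards in 19.5% of all genes tested, and below them for none, against 20.9%. The log2 fold change was above 0 for 9 of the 10, with a median of 0.48 beside 0.0066 over all genes tested. No member changed by 2-fold or more on the log2(FPKM + 1) scale, while 1.24% of all genes were 2-fold higher and 4.35% 2-fold lower at an unadjusted p under 0.05. In sorted bulk samples, a larger share of cells expressing a gene and more RNA per cell cannot be told apart.

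**Figure D1:**
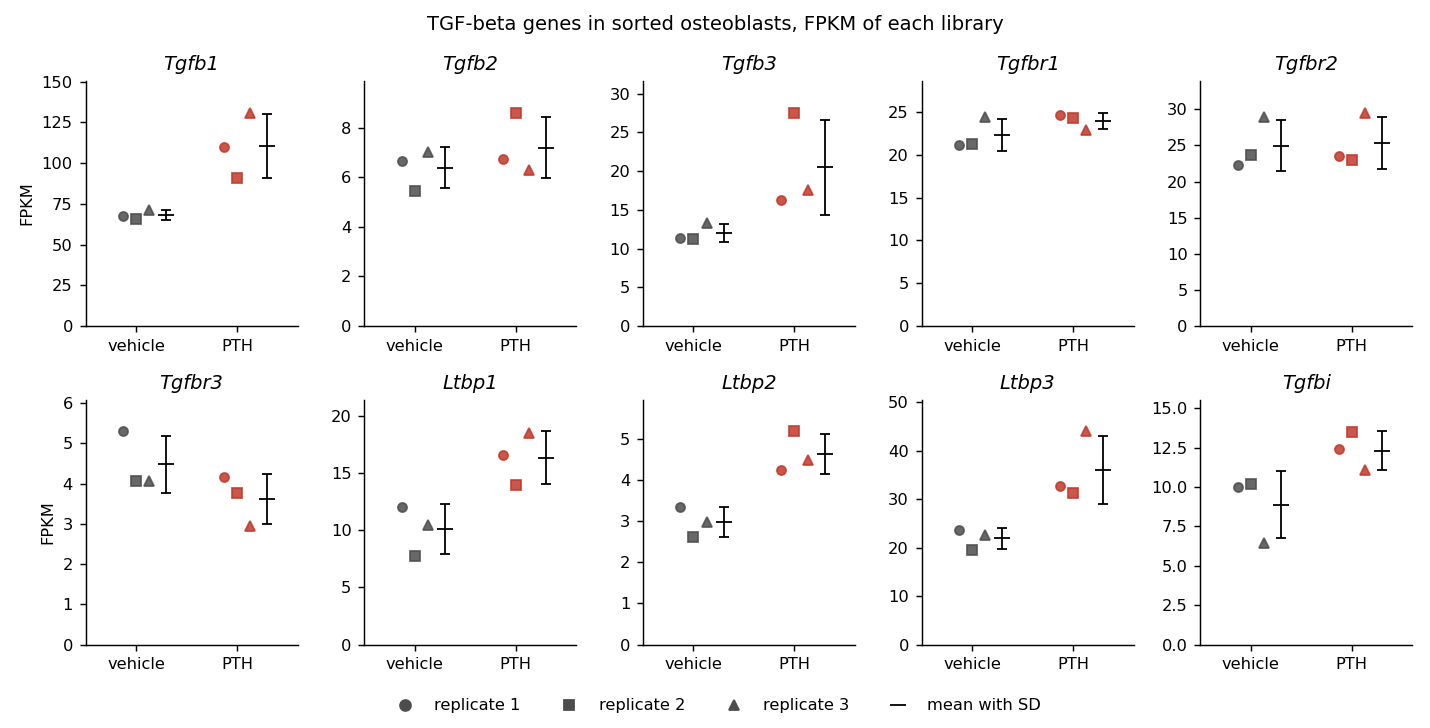
FPKM (vertical axes, each from 0) of the 10 genes in each of the 3 vehicle (grey) and 3 PTH (red) libraries of sorted osteoblasts, with the mean and SD beside them. The points of *Tgfb1* and of *Ltbp3* separate fully, from 65.4 to 71.4 FPKM against 91.2 to 131 FPKM and from 19.6 to 23.7 FPKM against 31.2 to 44.0 FPKM, while those of the 3 receptors overlap.

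*Tgfb1* (chr7:25687002-25705077, plus strand, GRCm38), the main ligand stored in bone, was 67.4, 65.4 and 71.4 FPKM in the vehicle libraries and 109.7, 91.2 and 131 FPKM in the PTH libraries. Every PTH library was above every vehicle library, and the vehicle libraries were close together (68.1 ± 3.07 against 111 ± 19.8 FPKM; mean ± SD, n = 3). The log2 fold change was 0.68 (SE 0.14), on the log2(FPKM + 1) scale used throughout, with an adjusted p of 0.0271. The adjusted p was 0.108 without vehicle replicate 1, 0.107 without vehicle replicate 2 and 0.0750 without PTH replicate 1, with log2 fold changes of 0.67, 0.65 and 0.67.

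*Tgfb3* (chr12:86056745-86079041, minus strand), a ligand of mesenchymal tissues, was 11.4, 11.3 and 13.4 FPKM with vehicle and 16.3, 27.5 and 17.6 FPKM with PTH. The groups did not overlap, and PTH replicate 2 was the highest by far. Its log2 fold change of 0.69 (SE 0.20) had an adjusted p of 0.0595. *Tgfb2* (chr1:186622792-186705989, minus strand) was 6.65, 5.45 and 7.04 FPKM with vehicle and 6.72, 8.59 and 6.27 FPKM with PTH, so the groups overlapped (log2 fold change 0.15, 95% interval -0.22 to 0.51, adjusted p 0.533). *Tgfb1* made up 78.9%, 79.7% and 77.8% of the summed FPKM of the ligands with vehicle and 82.7%, 71.6% and 84.6% with PTH. These shares overlapped (exact two-sided permutation p = 1 for the difference of means; 3 libraries against 3 cannot go below 0.10).

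For all 3 receptors the groups overlapped. *Tgfbr2* (chr9:116084293-116175360, minus strand), the type II receptor, was 22.3, 23.6 and 29.0 FPKM with vehicle and 23.5, 23.0 and 29.5 FPKM with PTH. Its log2 fold change was 0.02 with a 95% interval from -0.33 to 0.36 (adjusted p 0.941), and the sign turned under other scalings of the libraries. *Tgfbr1* (chr4:47353222-47414931, plus strand), the type I receptor, was 21.2, 21.3 and 24.5 FPKM with vehicle and 24.7, 24.3 and 22.9 FPKM with PTH. That gave 0.10 with an interval from -0.14 to 0.34 (adjusted p 0.511). *Tgfbr3* (chr5:107106570-107289629, minus strand), betaglycan, was 5.30, 4.08 and 4.06 FPKM with vehicle and 4.16, 3.78 and 2.94 FPKM with PTH. Its groups overlapped through PTH replicate 1, and its log2 fold change of -0.25 (interval -0.63 to 0.14, adjusted p 0.333) was the one below 0. The log2 ratio of *Tgfbr2* to *Tgfbr1* was 0.16 ± 0.084 with vehicle and 0.07 ± 0.25 with PTH (SD, n = 3; exact two-sided permutation p = 0.60).

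The 3 latent binding proteins each had all PTH libraries above all vehicle libraries. *Ltbp3* (chr19:5740904-5758532, plus strand), which binds latent TGF-beta and whose loss alters the mouse skeleton, was 23.7, 19.6 and 22.5 FPKM with vehicle and 32.8, 31.2 and 44.0 FPKM with PTH. It rose from 21.9 ± 2.14 to 36.0 ± 6.95 FPKM (SD, n = 3), a log2 fold change of 0.68 (SE 0.15) with an adjusted p of 0.0332. Leaving out vehicle replicate 1, 2 or 3 or PTH replicate 1 gave adjusted p-values of 0.102, 0.121, 0.0630 and 0.0717, with log2 fold changes of 0.73, 0.60, 0.70 and 0.73.

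*Ltbp1* (chr17:75005568-75392512, plus strand), which links the latent complex to fibrillin and fibronectin, was 12.02, 7.76 and 10.5 FPKM with vehicle and 16.5, 13.9 and 18.5 FPKM with PTH. The log2 fold change was 0.65 (SE 0.18) and the adjusted p 0.0504. *Ltbp2* (chr12:84783212-84876532, minus strand), a family member that does not bind latent TGF-beta, was 3.35, 2.61 and 2.98 FPKM with vehicle and 4.24, 5.19 and 4.50 FPKM with PTH. Its log2 fold change of 0.50 (SE 0.14) had an adjusted p of 0.0544. Of *Ltbp1*, *Ltbp2* and *Tgfb3*, which had adjusted p-values between 0.0504 and 0.0595, each passed in at least 1 alternative processing. *Ltbp3* made up 62.9% ± 2.35 of the summed FPKM of these 3 genes with vehicle and 63.0% ± 2.37 with PTH (SD, n = 3) (exact two-sided permutation p = 1). With *Ltbp4*, from the list of latency genes, added to the sum, the share of *Ltbp3* was 5.14 percentage points higher with PTH.

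*Tgfbi* (chr13:56609523-56639562, plus strand), a collagen-binding matrix protein named for its induction by TGF-beta, was 10.01, 10.2 and 6.43 FPKM with vehicle and 12.4, 13.5 and 11.1 FPKM with PTH. The groups did not overlap, with vehicle replicate 3 the lowest, and the log2 fold change of 0.45 (SE 0.18) had an adjusted p of 0.137. Without vehicle replicate 3 it was 0.26 (adjusted p 0.244).

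By level, *Tgfb1* stood first among the 10 in vehicle-treated osteoblasts, at the 93.8th percentile of the genes tested. *Tgfbr2*, *Tgfbr1* and *Ltbp3* followed at 25.0, 22.3 and 21.9 FPKM, and each overlapped its neighbour in range. *Tgfb3*, *Ltbp1*, *Tgfbi* and *Tgfb2* came next, from 11.99 down to 6.38 FPKM, again with neighbours overlapping. *Tgfbr3* (4.48 FPKM) and *Ltbp2* (2.98 FPKM) were last and apart. With PTH, *Ltbp3* was second and its libraries lay above those of *Tgfbr2*, and *Tgfbr3* (3.63 FPKM) was below *Ltbp2* (4.64 FPKM).

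Markers of other cells differed between the same groups, although the gate removed CD45+ and lineage-positive cells. The summed FPKM of 11 neutrophil genes was 388, 484 and 445 with vehicle and 2374, 1979 and 705 with PTH, and 7 of the 11 passed the test as higher. That of 8 megakaryocyte and platelet genes, a lineage rich in *Tgfb1*, ran from 6.56 to 8.56 with vehicle and was 201, 161 and 8.94 with PTH. That of 10 lymphocyte genes was 186, 164 and 117 with vehicle and 28.8, 26.6 and 3.83 with PTH, with 5 of 8 tested passing as lower. The 6 muscle genes summed to between 8.45 and 12.6 with vehicle and to 7.13, 1501 and 0.366 with PTH, so PTH replicate 2, the library highest in *Tgfb3*, was the one with muscle transcripts. The 10 macrophage and osteoclast genes ran from 191 to 214 with vehicle and from 323 to 364 with PTH, with 1 of 8 tested passing as higher. That gene was *Ctsk*, named after its values were seen, which made up most of the sum. It ran from 134 to 154 FPKM with vehicle and from 225 to 282 FPKM with PTH. The 6 endothelial genes summed to at most 5.89 in every library, the 6 stromal genes to between 108 and 124 and the 5 chondrocyte genes to between 589 and 732. Of the tested genes, 1 of 8 platelet, 1 of 6 stromal and 2 of 5 chondrocyte genes passed as higher, and none of 5 muscle and 2 endothelial genes passed. No marker of these lists was at 0 in all 6 libraries. PTH replicate 3 had the highest *Tgfb1* and *Ltbp3* of all 6 libraries and the lowest neutrophil, platelet and muscle sums of the PTH group. It also had the fewest genes at an FPKM of at least 1 (10795, where the others had 11463 to 11746). Its FPKM summed over all genes was the highest (462460, where the others ran from 400839 to 431278). Whether these library differences bear on *Tgfb1* and *Ltbp3* was not tested. Without PTH replicate 3 the log2 fold changes were 0.55 for *Tgfb1* and 0.53 for *Ltbp3*, with adjusted p-values of 0.0303 and 0.0395. The 8 osteoblast markers other than *Col1a1* and *Col1a2* summed to between 11256 and 13616 FPKM with vehicle and to 14733, 12993 and 21265 FPKM with PTH, so they too were highest in PTH replicate 3. The part of other cells in the changes of *Tgfb1* and *Ltbp3* was not tested.

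**Figure D2:**
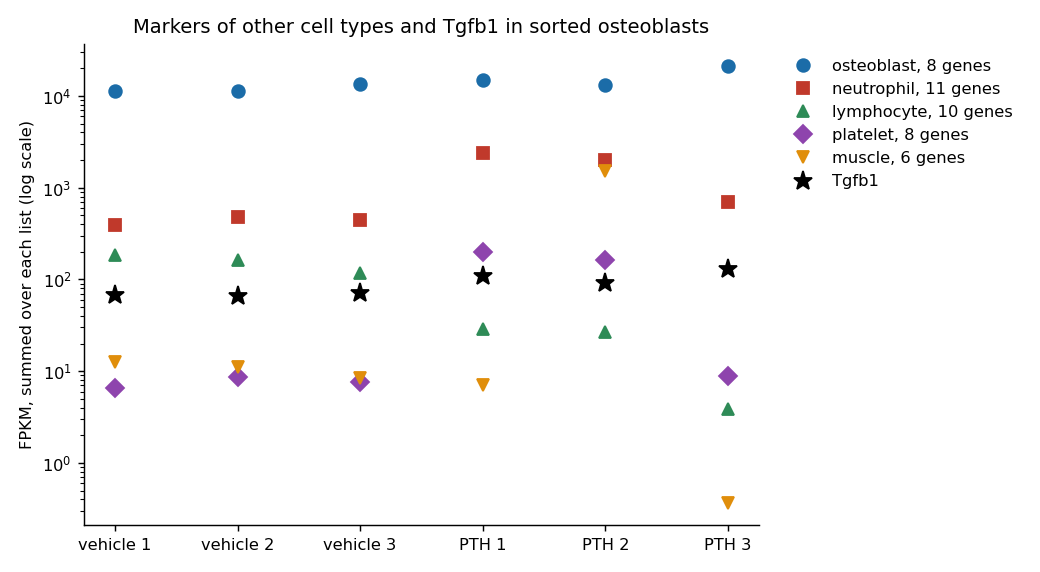
Summed FPKM of marker lists (log axis) and FPKM of *Tgfb1* in each library of sorted osteoblasts, 1 point per library. PTH replicates 1 and 2 are high in neutrophil (2374 and 1979) and platelet (201 and 161) markers, PTH replicate 3 is near the vehicle libraries in platelet markers (8.94), and *Tgfb1* is highest there (131).

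Genes that act around the members were counted in 4 lists. Of 49 tested with PTH, 8 passed as higher and 3 as lower, which is 16.3% and 6.12% beside 6.38% and 8.85% of all genes tested. The median log2 fold change was 0.18 beside 0.0066. The counts were 0 and 0 without vehicle replicate 1 and without vehicle replicate 2, 5 and 1 without vehicle replicate 3, and 1 and 1 without PTH replicate 1. Without PTH replicate 2 the count of lower genes was 1. The counts of all genes tested fell with them, to 1 higher and 0 lower without vehicle replicate 1 and to 0 and 0 without vehicle replicate 2, where 1415 and 1638 had an unadjusted p under 0.05.

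Of 13 latency and activation genes tested, 2 passed as higher and 2 as lower. *Mmp2*, a gelatinase that can release latent TGF-beta, rose from 445 ± 40.6 to 732 ± 115 FPKM (SD, n = 3; log2 fold change 0.71, adjusted p 0.0233). *Furin*, the convertase that cleaves the TGF-beta precursor, rose from 37.3 ± 5.45 to 62.5 ± 12.9 FPKM (0.72, adjusted p 0.0379). *Fbn2*, a fibrillin, fell from 9.73 ± 1.01 to 6.11 ± 1.12 FPKM (-0.60, adjusted p 0.0419). *Lrrc33*, now *Nrros*, which tethers latent TGF-beta on myeloid cells, was 11.02, 14.6 and 8.37 FPKM with vehicle and 3.34, 2.79 and 1.56 FPKM with PTH. It fell by 1.79 on the log2 scale (adjusted p 0.0143). In the same libraries the lymphocyte sum was lower, while the neutrophil sum and the macrophage and osteoclast sum were higher. The part of any of these cells in the fall of *Lrrc33* was not tested. *Mmp14* was 159 ± 16.4 against 195 ± 3.47 FPKM (adjusted p 0.0929).

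Of 9 ligand binders and co-receptors tested, 3 passed as higher and 0 as lower. *Bgn*, the proteoglycan biglycan, rose from 1533 ± 144 to 2606 ± 657 FPKM (log2 fold change 0.74, adjusted p 0.0387). *Fmod*, fibromodulin, rose from 189.8 ± 22.3 to 292 ± 27.8 FPKM (0.62, adjusted p 0.0243). *Cd109*, a co-receptor that restrains TGF-beta signalling, rose from 25.6 ± 1.89 to 39.7 ± 3.76 FPKM (0.61, adjusted p 0.0210). *Emilin1*, which hinders processing of the precursor, was 61.0 ± 6.99 against 88.5 ± 15.2 FPKM (adjusted p 0.0566), and the type I receptor gene *Acvrl1* 0.901 ± 0.211 against 1.70 ± 0.503 FPKM (adjusted p 0.145). Of these values each is a mean ± SD of 3 libraries.

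None of 12 Smads and regulators passed with PTH, while the 5 of smallest p had adjusted p-values from 0.0953 to 0.232: *Ski* (log2 fold change 0.39), *Smad4* (0.26), *Tgif2* (0.39), *Pmepa1* (0.31) and *Smurf1* (0.29). Of 15 TGF-beta target genes, 3 passed as higher and 1 as lower. *Fn1*, fibronectin, rose from 260.4 ± 22.5 to 538 ± 77.7 FPKM (1.04, adjusted p 0.0138). *Ctgf*, a matricellular protein, rose from 229 ± 18.8 to 334 ± 18.8 FPKM (0.55, adjusted p 0.0204), and *Junb*, an AP-1 subunit, from 219 ± 16.8 to 340.2 ± 75.3 FPKM (0.61, adjusted p 0.0454). *Klf10*, an early TGF-beta response gene, fell from 44.4 ± 3.17 to 33.8 ± 1.18 FPKM (-0.38, adjusted p 0.0418). *Snai1* was 28.7 ± 4.42 against 43.2 ± 7.95 FPKM (adjusted p 0.0602). The target genes thus did not move one way.

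In *Slpi*-overexpressing MC3T3-E1 cells, transcripts of all 3 latent binding proteins, of *Tgfbi*, *Tgfbr2*, *Tgfbr3* and *Tgfb2* fell, while *Tgfb3* and *Tgfbr1* rose slightly. Of the 10 genes, 2 passed as higher and 7 as lower, where 31.9% of the 11466 genes tested were higher and 28.9% lower (60.8% in either direction), so a call by itself was common in this experiment. No member changed by 2-fold or more on the log2(FPKM + 1) scale, where at an unadjusted p under 0.05 0.75% of all genes were 2-fold higher and 0.384% 2-fold lower. All 7 genes that fell had every *Slpi* library below every mock library, found in 32.2% of all genes tested, and both that rose had every one above, found in 34.9%. The median log2 fold change was -0.34 beside 0.0041 over all genes tested. The 7 that fell passed in all 14 alternative settings, including each with 1 library left out.

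**Figure D3:**
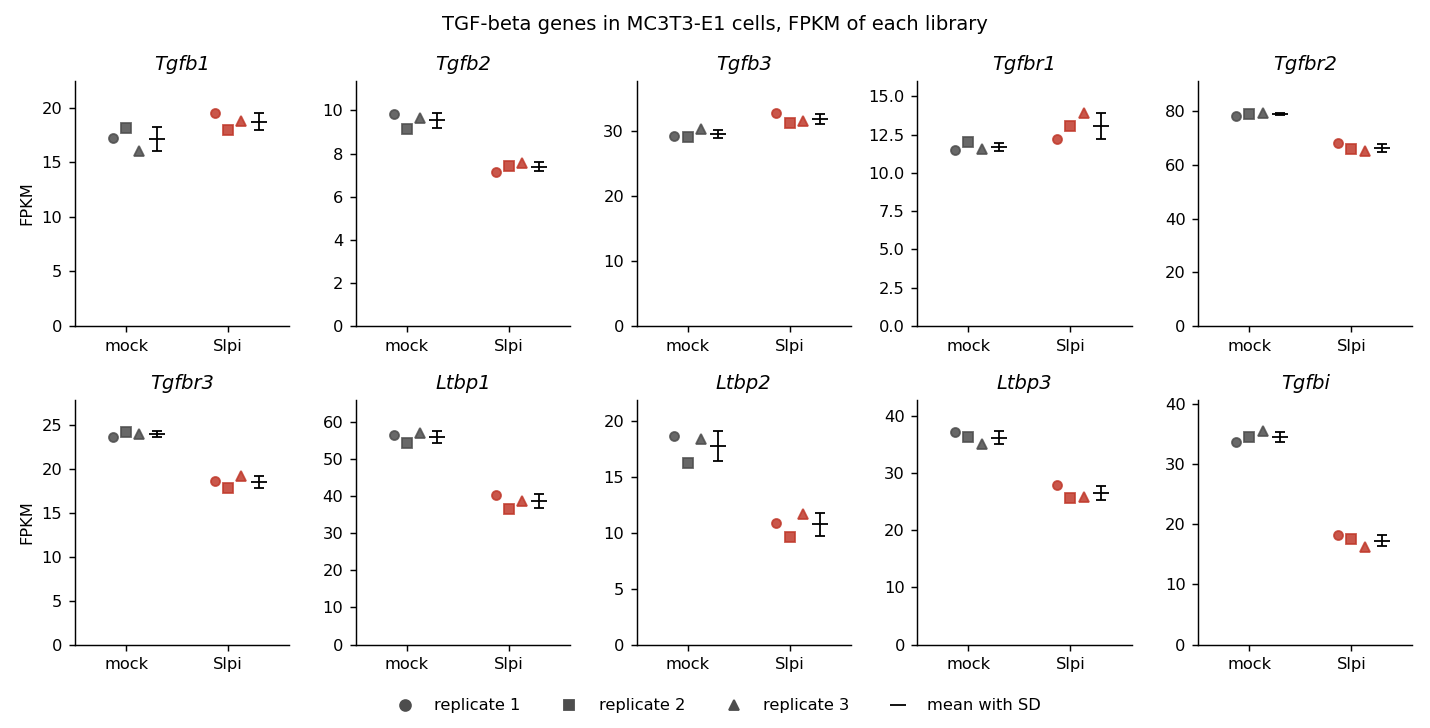
FPKM (vertical axes, each from 0) of the 10 genes in each of the 3 mock (grey) and 3 *Slpi* (red) libraries of MC3T3-E1 cells, with the mean and SD beside them. *Tgfbi* shows the widest relative gap, from 33.7 to 35.5 FPKM in mock cells against 16.3 to 18.2 FPKM, and *Tgfb1* is the gene whose groups overlap.

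*Tgfbi* was 33.7, 34.6 and 35.5 FPKM in mock cells and 18.2, 17.5 and 16.3 FPKM in *Slpi*-overexpressing cells. It fell from 34.6 ± 0.891 to 17.3 ± 0.946 FPKM (SD, n = 3), and the mean with *Slpi* was 0.501 of the mock mean. The log2 fold change was -0.96 (95% interval -1.06 to -0.85, adjusted p 2.45e-06), the largest among the 10 genes, and by p-value it ranked 84 of 11466.

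*Ltbp2* was 18.6, 16.2 and 18.4 FPKM in mock cells and 10.9, 9.64 and 11.7 FPKM with *Slpi*, a log2 fold change of -0.68 (SE 0.074, adjusted p 0.00011). *Ltbp1* was 56.4, 54.1 and 56.98 FPKM in mock cells and 40.3, 36.6 and 38.7 FPKM with *Slpi*, a change of -0.52 (SE 0.042, adjusted p 2.54e-05). *Ltbp3* was 37.2, 36.4 and 35.1 FPKM in mock cells and 28.01, 25.7 and 25.9 FPKM with *Slpi*, a change of -0.44 (SE 0.043, adjusted p 6.82e-05). All 3 fell by more than the spread between replicates. The share of *Ltbp3* in the 3 was 33.0% ± 1.19 in mock cells and 35.02% ± 0.957 with *Slpi* (SD, n = 3; exact two-sided permutation p = 0.20).

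Among receptors, *Tgfbr2* was 78.5, 79.1 and 79.3 FPKM in mock cells and 68.2, 65.9 and 65.3 FPKM with *Slpi*. It fell by 0.25 on the log2 scale (SE 0.030, adjusted p 0.000206). *Tgfbr3* was 23.6, 24.2 and 23.998 FPKM in mock cells and 18.6, 17.8 and 19.2 FPKM with *Slpi*, a change of -0.35 (SE 0.039, adjusted p 0.000114). *Tgfbr1* went the other way, from 11.5, 12.01 and 11.5 FPKM to 12.2, 13.1 and 13.9 FPKM (0.15, SE 0.052, adjusted p 0.0369). The log2 ratio of *Tgfbr2* to *Tgfbr1* was 2.77, 2.72 and 2.78 in mock cells and 2.48, 2.33 and 2.23 with *Slpi*. The 2 groups did not overlap, the difference was -0.41, and the exact two-sided permutation p was 0.10, the smallest that 3 against 3 allows.

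*Tgfb2* was 9.83, 9.16 and 9.63 FPKM in mock cells and 7.16, 7.44 and 7.57 FPKM with *Slpi*, and it fell by 0.33 (SE 0.046, adjusted p 0.000393). *Tgfb3* was 29.2, 29.1 and 30.3 FPKM in mock cells and 32.7, 31.2 and 31.6 FPKM with *Slpi* (0.10, SE 0.035, adjusted p 0.0324). *Tgfb1* was 17.2, 18.2 and 16.0 FPKM in mock cells and 19.5, 18.0 and 18.8 FPKM with *Slpi*. Its groups overlapped and it did not pass (0.12, interval 0.0023 to 0.24, adjusted p 0.0726). With 1 library left out the log2 fold change ran from 0.079 without mock replicate 3 (adjusted p 0.238) to 0.16 without mock replicate 2 (adjusted p 0.0375), the latter being the 1 of 14 alternatives in which it passed. The rises of *Tgfb3* and *Tgfbr1* were of a size that 1 library decides. The adjusted p of *Tgfb3* was 0.0947 without mock replicate 1, 0.104 without mock replicate 2, 0.0744 without *Slpi* replicate 1 and 0.0558 without *Slpi* replicate 3. That of *Tgfbr1* was 0.0974, 0.0530 and 0.0954 without mock replicates 1, 2 and 3, and 0.0823 and 0.113 without *Slpi* replicates 2 and 3. *Tgfb1* made up 30.5% ± 1.76 of the ligands' summed FPKM in mock cells and 32.3% ± 0.557 with *Slpi* (SD, n = 3; exact two-sided permutation p = 0.20).

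**Figure D4:**
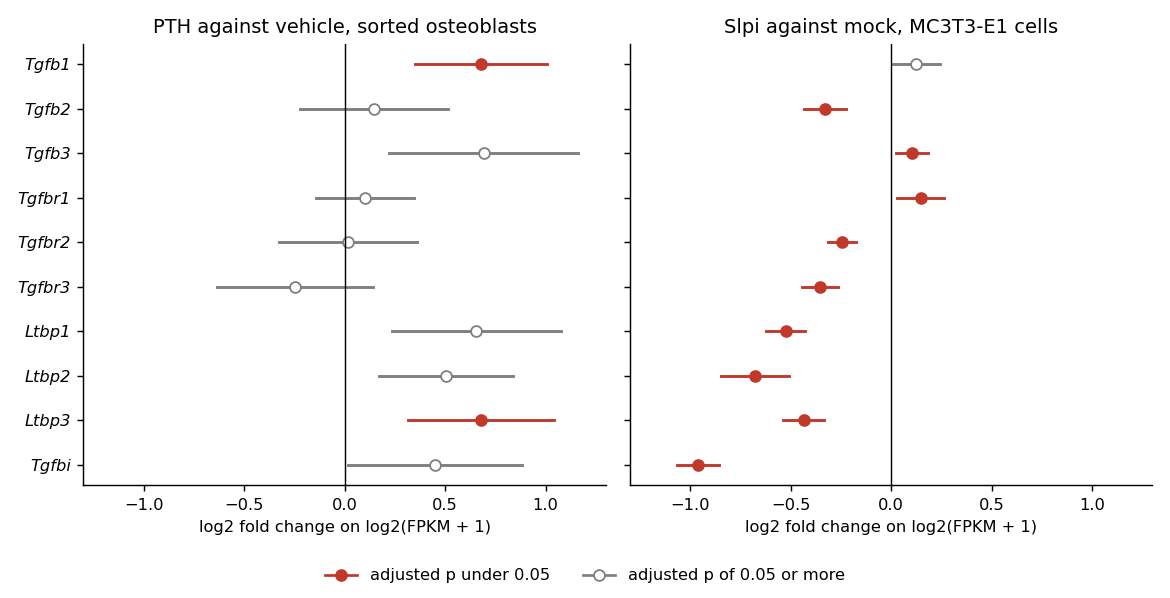
Log2 fold changes on the log2(FPKM + 1) scale with 95% intervals (horizontal axis) of the 10 genes in PTH-treated osteoblasts (left) and *Slpi*-overexpressing MC3T3-E1 cells (right), filled red where the adjusted p was under 0.05. *Ltbp3* lies at 0.68 on the left and -0.44 on the right, *Tgfb1* at 0.68 and 0.12, and *Tgfbi* at 0.45 and -0.96.

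The order of levels in mock cells began with *Tgfbr2* at 79.0 FPKM and *Ltbp1* at 55.8 FPKM. *Ltbp3* (36.2 FPKM) and *Tgfbi* (34.6 FPKM) overlapped in range, *Tgfb3* (29.5 FPKM) and *Tgfbr3* (23.9 FPKM) followed apart, *Ltbp2* and *Tgfb1* (17.7 and 17.1 FPKM) overlapped, and *Tgfbr1* (11.7 FPKM) and *Tgfb2* (9.54 FPKM) were last. With *Slpi*, *Tgfb3* stood above *Ltbp3*, and *Tgfb1*, *Tgfbr3* and *Tgfbi*, from 18.8 to 17.3 FPKM, overlapped with their neighbours. The 2 experiments were normalized separately, so levels were compared within each. *Tgfb1* was the first of the 3 ligands in osteoblasts and *Tgfb3* in MC3T3-E1 cells.

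In *Slpi*-overexpressing cells more genes of these lists fell than rose. Of 44 genes tested, 7 passed as higher and 23 as lower, 15.9% and 52.3% beside 31.9% and 28.9% of all genes tested, and the median log2 fold change was -0.15 beside 0.0041. Of 11 latency and activation genes, 0 passed as higher and 8 as lower. *Thbs1*, thrombospondin-1, which activates latent TGF-beta, fell from 77.4 ± 1.70 to 47.4 ± 1.51 FPKM (SD, n = 3; log2 fold change -0.69, adjusted p 3.39e-06). *Fbn1*, the fibrillin on which the LTBPs are deposited, fell from 111 ± 1.77 to 82.4 ± 3.46 FPKM (-0.43, adjusted p 3.69e-05). *Furin* fell by 0.38, *Itgb5*, an integrin subunit, by 0.20 and *Fbn2* by 0.18, with adjusted p-values of 0.000313, 0.00211 and 0.00177.

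Of 7 binders and co-receptors tested, 1 passed as higher and 4 as lower. *Aspn*, asporin, a proteoglycan that binds TGF-beta1, fell from 196 ± 10.9 to 90.5 ± 9.95 FPKM (log2 fold change -1.11, adjusted p 1.26e-05). *Emilin1*, *Fmod* and *Bgn* fell by 0.34, 0.30 and 0.26, with adjusted p-values of 0.000196, 0.000234 and 0.000316. *Bambi*, a pseudoreceptor without a kinase, rose from 1.44 ± 0.0915 to 2.95 ± 0.176 FPKM (0.69, adjusted p 6.28e-05). Of 12 Smads and regulators, 3 passed as higher and 3 as lower. *Smad3*, a receptor-activated Smad, fell by 0.24 (adjusted p 0.000904) and *Smad2*, the other, rose by 0.15 (adjusted p 0.0189). The co-repressor *Ski* fell by 0.29 (adjusted p 0.000195), the ubiquitin ligase gene *Smurf1* fell by 0.15 (adjusted p 0.0161) and the co-repressor *Tgif2* rose by 0.30 (adjusted p 0.0145).

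Of 14 target genes tested, 3 passed as higher and 8 as lower, and *Cdkn2b*, a cell cycle inhibitor, was listed at 0 in all libraries. *Snai1*, a repressor of epithelial genes, fell from 116 ± 2.66 to 59.9 ± 4.83 FPKM (SD, n = 3; log2 fold change -0.94, adjusted p 5.36e-06). *Acta2*, smooth muscle actin, fell from 709 ± 16.6 to 415 ± 18.3 FPKM (-0.77, adjusted p 3.52e-06), and *Tagln*, transgelin, from 126 ± 2.85 to 81.5 ± 3.89 FPKM (-0.62, adjusted p 9.11e-06). *Tnc*, tenascin-C, and *Mmp13*, a collagenase, went the other way, from 111 ± 0.850 to 218 ± 6.16 FPKM (0.96, adjusted p 3.66e-07) and from 191 ± 4.26 to 297 ± 19.9 FPKM (0.63, adjusted p 1.92e-05). The 6 stromal and fibroblast markers summed to between 211 and 218 FPKM in mock cells and between 141 and 159 FPKM with *Slpi*, with 4 of 5 tested passing as lower and *Lepr*, the leptin receptor, as higher (1.34, adjusted p 8.82e-06). Of 9 osteoblast markers tested, 6 passed as higher and 1, *Spp1* (osteopontin), as lower (-0.39, adjusted p 2.21e-05). *Lepr* and *Spp1* are named after their values were seen. The sums of lymphocyte, endothelial and muscle genes were at most 0.544 FPKM in every library. Neutrophil genes summed to at most 11.8 FPKM, platelet genes to between 16.1 and 19.6 FPKM with 1 of 3 tested passing as lower, macrophage and osteoclast genes to between 79.0 and 84.5 FPKM, and chondrocyte genes to between 119 and 139 FPKM with 2 of 3 tested passing as higher and 1 as lower. The neutrophil genes *S100a9*, *Ngp*, *Elane* and *Retnlg* and the macrophage genes *Adgre1*, *C1qa* and *C1qb* were at 0 in all.

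**Figure D5:**
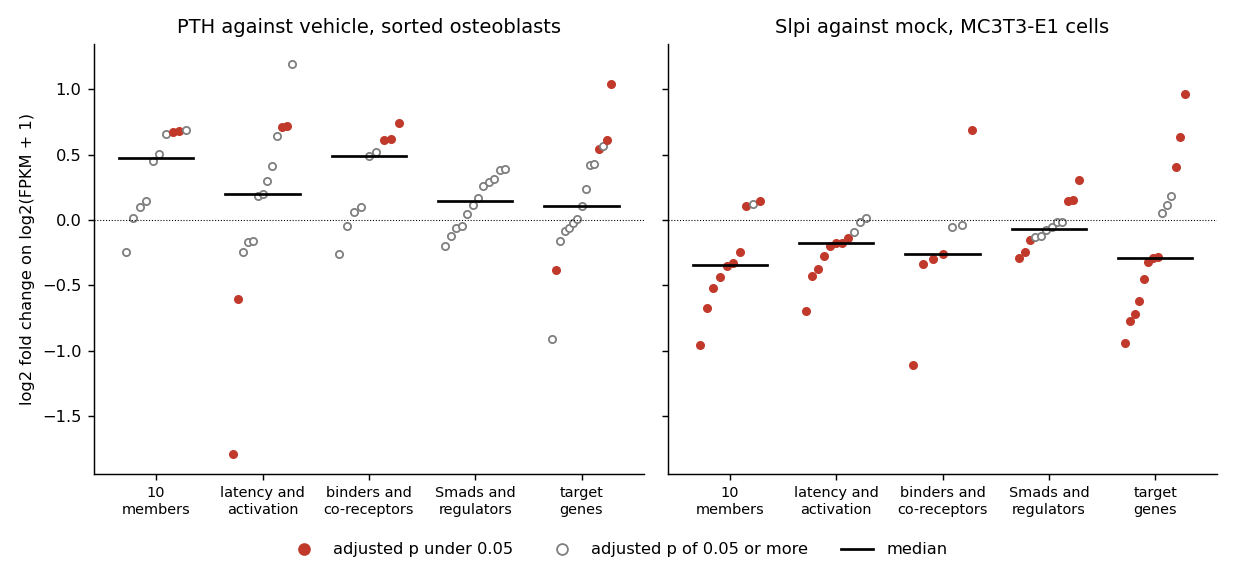
Log2 fold changes on the log2(FPKM + 1) scale (vertical axis) of the 10 genes and of the tested genes of 4 lists around them, with 1 point per gene, filled red where the adjusted p was under 0.05 and a bar at the list's median. With PTH (left) the medians of the lists lie above 0 and single genes lie on both sides, and with *Slpi* (right) the latency and activation genes lie mostly below 0, with 8 of 11 passing as lower.

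The 2 experiments share no library, and their values are set side by side here. *Ltbp3* passed as higher with PTH (0.68) and as lower with *Slpi* (-0.44). *Tgfb1* passed as higher with PTH (0.68) and did not pass with *Slpi* (0.12). *Furin*, *Bgn*, *Fmod*, *Mmp2*, *Fn1* and *Ctgf* likewise passed as higher with PTH and lower with *Slpi*. With *Slpi* the log2 fold changes of *Mmp2*, *Fn1* and *Ctgf* were -0.17, -0.28 and -0.45. *Fbn2* passed as lower in both (-0.60 with PTH and -0.18 with *Slpi*). The cells, the treatments and, per the labels, the library kits differed between the experiments, so their parts cannot be told apart, and no test was made between the 2.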

How the data were processed

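Sorted osteoblasts (vehicle or PTH) and MC3T3-E1 cells (mock or *Slpi*) were sequenced as 75-base single-end reads. The authors deposited gene-level FPKM values, 1 file per library. Per the submitters' processing notes the tools were TopHat2 2.0.13, Bowtie2 2.2.3, SAMtools 0.1.19 and Cufflinks 2.2.1 (Cuffnorm), with mm10. The annotation, strand setting and scaling option were not given in the sources used here. The labels and the methods name different library kits for MC3T3-E1 cells. FPKM values hold no counts; relative depth was read from the value steps of 1 read below 0.6 FPKM.

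Each experiment was fitted alone with limma 3.58.1 (R 4.3.3) on log2(FPKM + 1), for genes with an FPKM of 1 or more in at least 1 of 6 libraries, with eBayes and a mean-variance trend. Benjamini-Hochberg adjustment ran over all genes tested, and a gene passed at an adjusted p under 0.05. A fold change on this scale understates that of low genes. Single values were compared by exact permutation tests. On simulated data, the fit for PTH recovered 192 of 200 genes that were shifted by 2 on the log2 scale and that for *Slpi* 199 of 200. They also called 4 and 8 genes that were not shifted. A shift of 2 is larger than the change of any member, so recovery at the members' sizes was not tested. The members and lists were chosen with earlier results of these data known. All members are named and, of each pathway list, the up to 5 tested genes of smallest p in each experiment. Positions come from GENCODE M21 (GRCm38). *Tgfb2*, *Tgfb3*, *Tgfbr3* and *Ltbp2* share exon bases with other annotated genes. A withheld item is not reported here. The alternatives tried were the replicate block, the filter, the pseudocount (0.1), the variance model, 2 other scalings and leaving out each replicate.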

Additional observations from a re-analysis of the deposited data

How the results depend on the processing

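With PTH, *Tgfb1* and *Ltbp3* passed in all 8 alternatives that kept every library, and the count of members that passed as higher (2) became 4 with robust eBayes and 5 with quantile normalization. Leaving out 1 replicate gave 0 to 2, with 0 without vehicle replicate 1, vehicle replicate 2 or PTH replicate 1, where 5 to 6 members kept an unadjusted p under 0.05. The count of pathway genes higher with PTH (8) became 5 with no filter, with no trend in eBayes and with quantile normalization, and 0 to 8 with 1 replicate left out. The count of lower ones (3) became 1 with no trend and 0 to 2 with 1 replicate left out. The difference in the share of *Ltbp3* went from 0.0722 to 5.14 percentage points with *Ltbp4* added to the sum. *Tgfbr2*, whose interval spans 0, turned to -0.032 with quantile normalization, -0.017 with median ratio scaling and -0.093 to 0.13 with 1 replicate left out, and *Tgfb2* to -0.015 with PTH replicates 1 and 2 both left out, an alternative chosen after seeing the data. With *Slpi*, the 7 members that fell passed in all 14 alternatives, and the count of higher members (2) became 1 with no filter, with no trend and with quantile normalization, 0 with median ratio scaling (2 at an unadjusted p under 0.05) and 0 to 1 with 1 replicate left out. The cause of these shifts was not tested. Samples with the same replicate number deviated together weakly or not at all (r of 0.029, 0.073 and 0.10 for PTH, and 0.039, -0.052 and -0.00026 for *Slpi*). Between different numbers r ran from -0.12 to 0.069 for PTH and from -0.099 to 0.10 for *Slpi*. The numbers were not taken as pairs, although for PTH those of the same number were all above 0. With a replicate block, *Ltbp1* passed with PTH (adjusted p 0.0272). No scaling moved the median of all genes by more than 0.1. FPKM values give no counts, so no counting interval was set.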
